A study of Mus musculus with 6 samples.

Results

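The genes described here answer interferons or take part in the sensing of double-stranded RNA, and they were measured in hearts of mouse embryos at embryonic day 11.5. They were named in a list of 35 genes, and every probe that the platform annotation gives to 1 of them was taken from the scanner files. Of these genes, 31 had a probe, on 32 spots (Eif2ak2 had 2). The other 4, Ifit3, Ifitm1, Ifitm3 and B2m, had no probe named for them alone and were not analysed here. RNA was hybridised to 6 single-colour CodeLink arrays. In 3 of them it came from hearts in which the Dicer gene had been inactivated by a Cre recombinase knocked into the Nkx2.5 locus, which is active in cardiac progenitors. The 3 control arrays held RNA of control hearts, for which the sources used here name neither genotype nor Cre status. The labels do not say whether an array held 1 heart or a pool, so the p-values measure only the spread between these arrays.

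Interferons are secreted signals that act through receptors and Jak kinases to switch on a large set of antiviral genes. The helicases Ifih1 (MDA5) and Ddx58 (RIG-I) recognise double-stranded RNA in the cytoplasm and signal through the mitochondrial adaptor Mavs to Irf3 and Irf7, which turn on interferon genes. Dicer also cuts double-stranded RNA, and its best known products in mammals are the mature miRNAs. The comparison shows whether these RNA-sensing and interferon-stimulated transcripts differ in level between mutant and control hearts.

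Dicer1 checked the labels. Its level was 6.74, 6.73 and 6.68 on mutant arrays 1 to 3 and 7.82, 7.63 and 7.71 on control arrays 1 to 3 (log2 normalized intensity), so the groups did not overlap. The mutant level was 0.498 of the control level (limma adjusted p = 0.036). Whether this probe lies inside the deletion is unknown, and the transcript was above background on all 3 mutant arrays. Each array had 36227 spots, of which 74.1% to 78.2% were above background by the scanner's flag. The cardiomyocyte genes were bright on all arrays, as with troponin T Tnnt2 at 13.82 to 14.67, so the arrays held cardiac RNA. The arrays did not separate by group on the first principal component of all tested probes, which was -18.3, -30.1 and 5.63 for mutants 1 to 3 and 37.3, 26.3 and -20.8 for controls 1 to 3. Controls 1 and 2 thus stood apart, control 3 lay with mutants 1 and 2, and mutant 3 stood alone on the second component at -34.8.

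Cell type marker lists differed between the arrays, partly along this split. Erythroid genes had differences below 0 in 9 of 10. The largest was that of Slc4a1, the red cell anion exchanger, at 10.54 and 10.27 on controls 1 and 2 and 7.99 to 9.22 elsewhere. Not all of the list followed this split. The globin genes Hba-x, Hbb-bh1 and Hba-a1 lay near 0, at -0.04, 0.08 and -0.05, and Hba-a1 and Ermap were highest on control 3. Endothelial genes had differences below 0 in 7 of 9. In 4 of them, Kdr, Tie1, Cd34 and Esam, every mutant array was below every control array, as in 5.5% of all genes. Over all genes tested 52.4% of the differences were above 0. In the epicardial list 6 of 8 differences were below 0. In the cardiomyocyte list 5 of 11 were above 0 and 6 below, with a median of -0.03. Tnnt2 gave 0.46 ± 0.19 and Tnni3 0.41 ± 0.16 (mutant minus control, SE). Myh7 gave -0.45 ± 0.38 and Nkx2-5 -0.23 ± 0.21. Ryr2 gave -0.11 ± 0.09, with every mutant array below every control array. No gene of these 4 lists passed limma's adjusted test. Their part in the results given here was not tested. In bulk hearts, fewer cells of a type and less RNA per cell cannot be told apart.

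Promoter sequences are shown for 4 members because the results below turn on them: Bst2, which had the largest difference; Irf1, the other member with an unadjusted p under 0.05; Ifit1, one of several members that were highest on mutant array 1; and Isg15, a classical interferon target that was not higher. The windows run from 250 bases before to 50 bases after the annotated start and come from RefSeq, build GRCm38.p6. Capitals mark 2 motifs on either strand. The first is the core of the interferon-stimulated response element, GAAANNGAA, to which Irf9 binds together with Stat2. The other is the gamma-activated site, TTCNNNGAA, a motif of genes that answer interferon gamma.
Bst2 (chr8:71537423-71537722, minus strand): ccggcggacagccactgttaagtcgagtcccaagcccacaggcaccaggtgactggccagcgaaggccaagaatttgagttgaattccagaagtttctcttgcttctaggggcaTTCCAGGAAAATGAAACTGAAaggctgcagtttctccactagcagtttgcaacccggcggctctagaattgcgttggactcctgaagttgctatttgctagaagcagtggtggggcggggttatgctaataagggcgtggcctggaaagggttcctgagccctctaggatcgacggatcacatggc
Irf1 (chr11:53769764-53770063, plus strand): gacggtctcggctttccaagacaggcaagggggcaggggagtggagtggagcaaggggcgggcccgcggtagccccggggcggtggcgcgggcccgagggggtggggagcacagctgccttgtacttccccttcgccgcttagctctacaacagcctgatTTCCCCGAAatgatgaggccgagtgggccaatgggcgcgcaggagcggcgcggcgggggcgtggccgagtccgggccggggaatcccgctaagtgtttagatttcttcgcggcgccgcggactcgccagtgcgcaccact
Ifit1 (chr19:34640639-34640938, plus strand): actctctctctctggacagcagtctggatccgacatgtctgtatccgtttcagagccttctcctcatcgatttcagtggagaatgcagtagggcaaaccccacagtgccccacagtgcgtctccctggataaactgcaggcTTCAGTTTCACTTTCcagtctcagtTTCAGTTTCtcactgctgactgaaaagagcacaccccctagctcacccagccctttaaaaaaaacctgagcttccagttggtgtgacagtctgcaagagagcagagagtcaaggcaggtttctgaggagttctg
Isg15 (chr4:156200769-156201068, minus strand): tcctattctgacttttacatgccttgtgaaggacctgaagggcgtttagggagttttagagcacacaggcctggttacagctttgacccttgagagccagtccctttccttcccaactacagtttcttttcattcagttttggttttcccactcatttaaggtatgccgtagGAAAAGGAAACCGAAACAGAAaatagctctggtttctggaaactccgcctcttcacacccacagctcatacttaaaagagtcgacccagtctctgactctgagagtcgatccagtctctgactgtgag

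The Bst2 window held a gamma-activated site that began 136 bases before the start and overlapped the first of 2 response element cores, at 130 and 124 bases before the start. The Irf1 window held a gamma-activated site at 90 bases before the start and no response element core. A further Irf1 window held neither motif. Ifit1 had 3 cores, at 109, 103 and 84 bases before the start, and Isg15 had 3 overlapping cores, at 78, 72 and 66 bases. RefSeq windows were given for 30 of the 35 members, on 35 windows in all; Dhx58, Zbp1, Usp18, Mx1 and Mx2 had none. The response element core was in 15 of the members' 35 windows and in 8.56% of the table's 32851 windows of that length. The gamma-activated site was in 10 of the 35 and in 8.30% of all windows. A match of letters describes the sequence and does not show that a factor binds there.

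Of the 31 genes with a probe, 23 entered the test, which took spots above background on 3 arrays or more. In 19 of them the spot was above background on all 6 arrays. The other 4, Stat2, Ifit1, Ifit2 and Isg20, were above background on 3 to 5 arrays, and none of these passed through arrays of 1 group alone. The 8 genes left out were Dhx58, Tlr3, Zbp1, Oas1a, Mx1, Gbp2, Psmb9 and Tap1, with levels between 5.80 and 6.24. Dhx58, Zbp1, Oas1a, Gbp2 and Tap1 were not well above background on any array. Tlr3 was above it on mutant 3 alone, Mx1 on 1 mutant array, and Psmb9 on 2 mutant arrays, so each of these was above background in mutants only. Against the lowest signal counted as above background, the log2 bound for Psmb9 was 0.04 and for Tlr3 0.01, and for Mx1 it was below 0, so no fold is given.

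None of the 23 tested members passed limma's test at an adjusted p under 0.05, where 0.06% of the 15012 genes tested did. At an unadjusted p under 0.05, 2 members were higher in the mutant (Bst2 and Irf1) and 0 were lower, beside 6.71% of all genes higher and 3.47% lower. The count higher was 6 without mutant 3 and 1 without control 1 or control 2. Each of these fits has its own share of all genes, which is not given here, so the counts are not set against 6.71%. Of the 23 differences 16 were above 0 and 7 below, where 52.4% of all genes lay above 0. Their median was 0.14 on the log2 scale, where the median over all genes was 0.01. In 6 members every mutant array lay above every control array (Ddx58, Irf1, Irf9, Usp18, Mx2 and Bst2), as in 9.73% of all genes. In Ifitm2 every mutant array lay below every control array, as in 5.5% of all genes. The median of the members' differences was 0.05 without mutant 1 and between 0.10 and 0.20 when any other single array was left out.

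**Figure D1:**
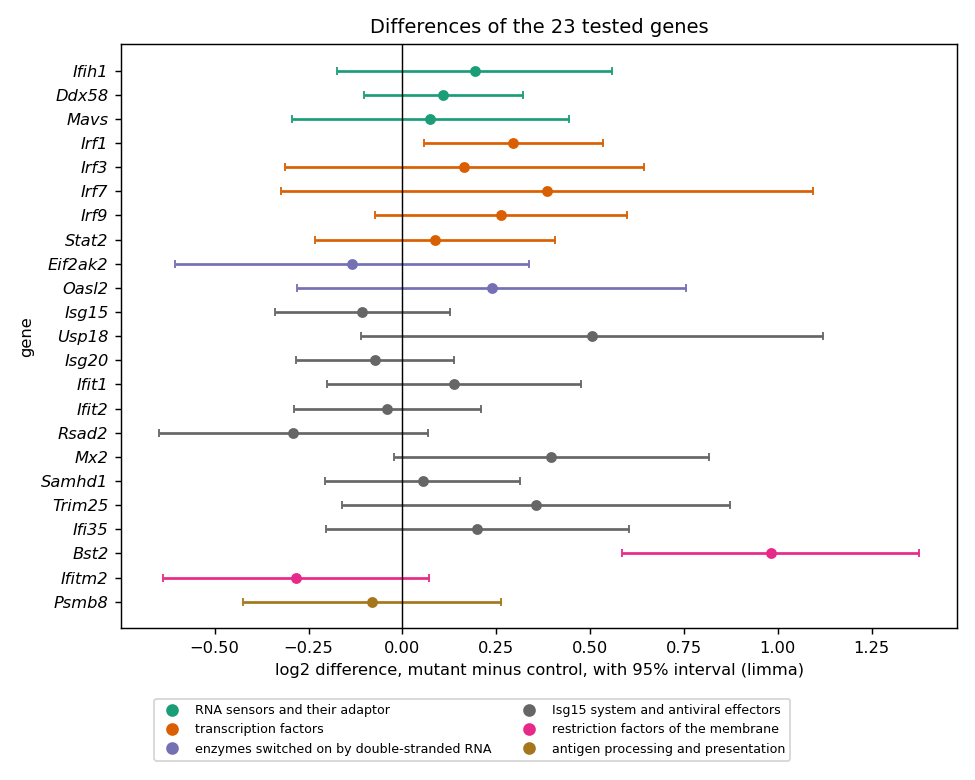
Log2 difference, mutant minus control, of the 23 tested genes (y axis), with the 95% interval from limma as bars and the colour showing the gene's role. The interval lies wholly above 0 for Bst2 (0.59 to 1.38) and Irf1 (0.06 to 0.53), and spans 0 for the other 21 genes.

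Bst2 (tetherin) had the largest difference among the members. It encodes a membrane protein that holds budding virus particles at the cell surface and is itself induced by interferon. Its log2 level was 10.32, 9.75 and 10.16 on mutants 1 to 3 and 9.09, 8.96 and 9.23 on controls 1 to 3. Every mutant array was above every control array, with a gap of over 0.5 between the lowest mutant and the highest control. On the authors' linear scale the same probe read 15.8, 10.8 and 14.5 in the mutants against 6.44, 5.89 and 7.17 in the controls. The group means were 10.07 ± 0.30 and 9.09 ± 0.13 (SD, n = 3 each), a 1.97-fold higher level with a 95% interval of 1.5 to 2.60. In the fit over all probes the adjusted p was 0.139 (limma), so it did not pass. By the size of p it ranked 82nd of 15012 genes, and 0.286% of the genes had a larger difference.

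Bst2 was higher in the mutant whichever array was left out, with log2 differences from 0.86 (without mutant 1) to 1.15 (without mutant 2). Its adjusted p in those fits ranged from 0.0542 to 0.766 (limma). Over all alternatives it ranged from 0.00906, with unequal array weights, to 1.0, without both arrays of title number 2. It passed in 2 of the 22 alternatives, the array weights and the fit without mutant 3 and control 3. In those same fits 24.2% and 22.9% of all genes passed.

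Ifitm2, the other measured membrane restriction factor, lies in the membrane of endosomes and hinders virus entry there. It was 11.02, 11.37 and 11.39 in mutants 1 to 3 and 11.39, 11.49 and 11.75 in controls 1 to 3. The lowest control and the highest mutant were almost level, and mutant 1, where Bst2 was highest, had the lowest Ifitm2. The difference was -0.28 ± 0.15 (SE, limma adjusted p = 0.568). Ifitm genes are close relatives, so the signal of this probe may include transcripts of Ifitm1 or Ifitm3, which had no probe here.

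All 5 transcription factors had a positive difference, as had 52.4% of all genes. In 1 of them the unadjusted p was under 0.05, beside 6.71% of all genes with such a p and a higher level. Irf1 is a transcription factor that acts downstream of interferons. Its level was 7.92, 8.05 and 8.14 in mutants 1 to 3 and 7.74, 7.67 and 7.82 in controls 1 to 3. Every mutant array was higher than every control array, by a small margin. Its level was 1.23-fold higher (95% interval 1.04 to 1.45), with an adjusted p of 0.385 in limma. Unlike Irf7 and Irf9, it was lowest of the mutants on array 1, and its difference was 0.35 without that array.

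Irf7, the factor that amplifies interferon production, was 8.02, 6.87 and 7.0 in mutants 1 to 3 and 6.95, 6.94 and 6.84 in controls 1 to 3. Mutant 1 stood 1.03 above the next array, and the other mutants lay within 0.1 of the controls' range. The difference of 0.38 ± 0.30 (SE) became 0.02 ± 0.11 without mutant 1. Irf9, the DNA-binding subunit of the complex that reads the response element, was 7.06, 6.75 and 6.55 in the mutants, against 6.48, 6.54 and 6.55 in the controls. Its difference of 0.26 ± 0.14 became 0.13 ± 0.11 without mutant 1. Stat2, its partner, gave 0.09 ± 0.13. Irf3, which is activated by phosphorylation rather than by its own induction, gave 0.17 ± 0.20.

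Of the RNA sensors and their adaptor none of the tested genes passed limma's test. Ifih1 was 7.92 in mutant 1, and the other 5 arrays lay between 7.37 and 7.43. Its difference was 0.19 ± 0.15 (SE, limma adjusted p = 0.683), and 0.02 without mutant 1. Ddx58 gave 0.11 ± 0.09, with mutant 1 highest at 6.64 and the other arrays at 6.40 to 6.50. Mavs gave 0.07 ± 0.15 and was highest in mutant 3, at 8.38. For the sensors the 95% intervals reached at most 0.56, so that a change of 1.47-fold in Ifih1 was not excluded by its interval.

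Of the enzymes that double-stranded RNA switches on, Eif2ak2 (PKR), the kinase that stops translation through eIF2 alpha, gave -0.13 ± 0.20 (SE). It was 7.29, 6.93 and 7.13 in mutants 1 to 3 and 7.57, 7.33 and 6.85 in controls 1 to 3, so the groups overlapped. Its dimmer probe gave -0.04. Oasl2, which belongs to the oligoadenylate synthetase family, was 7.47, 7.03 and 6.58 in the mutants, against 6.72, 6.83 and 6.81 in the controls. Mutant 1 was the highest array and mutant 3 the lowest. Its difference of 0.24 ± 0.22 (limma adjusted p = 0.725) was 0.02 without mutant 1.

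The Isg15 system showed no common direction among its members. Isg15, a ubiquitin-like modifier, was 6.44, 6.49 and 6.53 in mutants 1 to 3 and 6.71, 6.60 and 6.48 in controls 1 to 3, with a difference of -0.11 ± 0.10 (SE). Usp18, which removes Isg15 from proteins and dampens the interferon receptor, was 7.52, 6.59 and 6.57 in the mutants, against 6.35, 6.44 and 6.38 in the controls. All mutants were above all controls, and mutant 1 stood 0.93 above the next array. The difference was 0.51 ± 0.26 (limma adjusted p = 0.561) and 0.19 ± 0.10 without mutant 1. So the modifier and its protease, both interferon targets, were not highest on the same arrays.

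Among the antiviral effectors 6 of 10 tested genes, counted with Isg15 and Usp18, had a positive difference. Mx2, a dynamin-like GTPase, had the smallest p: it was 7.38, 6.71 and 6.90 in mutants 1 to 3 and 6.53, 6.64 and 6.62 in controls 1 to 3. All mutants were above all controls, and mutant 1 was 0.48 above the next array. The difference was 0.40 ± 0.18 (SE, limma adjusted p = 0.523) and 0.21 ± 0.11 without mutant 1. With the background-subtracted intensity and all 6 arrays it was 0.73 ± 0.29 (limma adjusted p = 0.505). Ifit1, which binds RNA that lacks the host's cap methylation, was 6.76 in mutant 1 and 6.28 to 6.50 elsewhere. Its difference was 0.14 ± 0.14, and 0.005 without mutant 1. Trim25, the ubiquitin ligase that promotes RIG-I signalling, was 10.24, 10.33 and 9.52 in the mutants, against 9.61, 9.68 and 9.73 in the controls, so that mutant 3 was the lowest of all. Its difference was 0.36 ± 0.22.

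Rsad2 (viperin), an enzyme that makes a chain-terminating nucleotide, had the most negative difference, -0.29 ± 0.15 (SE, limma adjusted p = 0.565). With the background-subtracted intensity the Rsad2 difference was -0.68 ± 0.32 (limma adjusted p = 0.571). On the main scale it was 6.38, 6.23 and 6.52 in mutants 1 to 3 and 6.82, 6.79 and 6.39 in controls 1 to 3. Controls 1 and 2 were high and control 3 lay among the mutants, the same split as on the first principal component. Ifi35 gave 0.20 ± 0.17 and Samhd1, a deoxynucleotide hydrolase, 0.05 ± 0.11. The exonuclease Isg20 gave -0.07 ± 0.09 and Ifit2 -0.04 ± 0.10. These last 2 were near background on some arrays. In antigen processing, only the immunoproteasome subunit Psmb8 was tested. It was 6.48, 6.54 and 6.96 in the mutants, against 6.80, 6.73 and 6.69 in the controls, with a difference of -0.08 ± 0.14 (limma adjusted p = 0.867). Its partner Psmb9 and the peptide transporter Tap1 were among the genes near background.

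**Figure D2:**
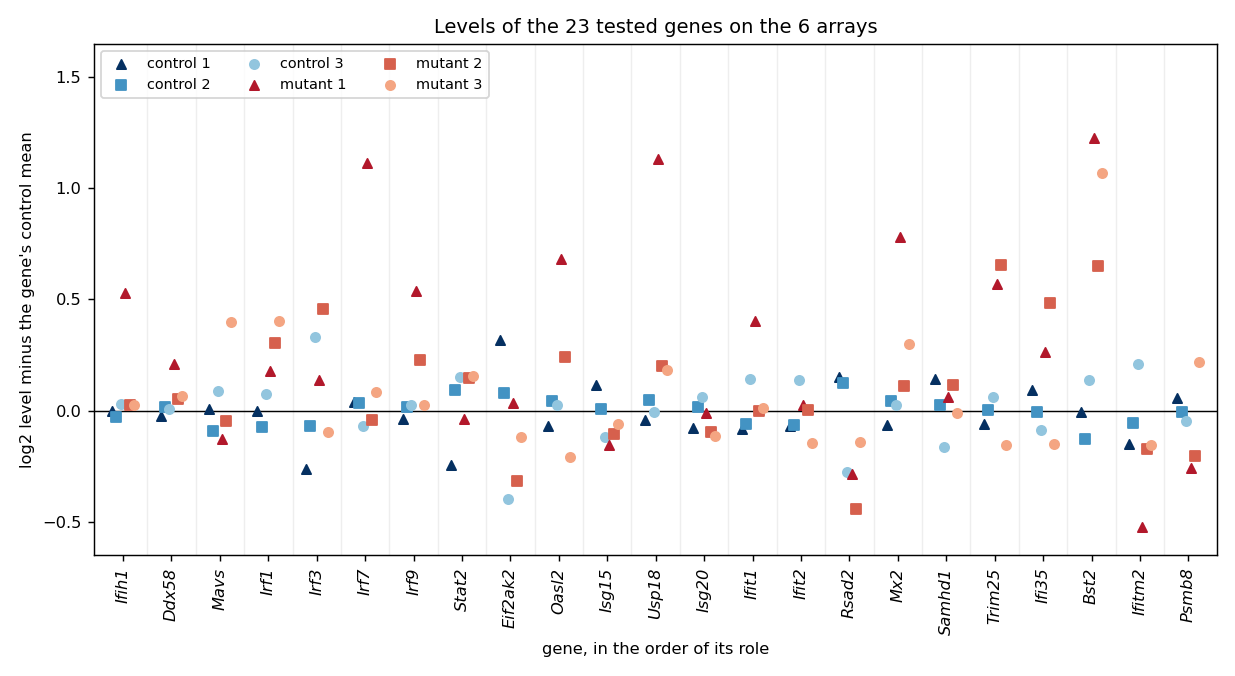
Log2 level of each of the 23 tested genes on each of the 6 arrays, given relative to that gene's control mean (y axis), with genes ordered by role (x axis). Bst2 is high on all 3 mutant arrays, whereas Irf7, Usp18, Mx2, Oasl2, Irf9, Ifih1 and Ifit1 are high on mutant 1 (dark red triangles).

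Mutant 1 was thus the highest array for a group of interferon targets. In 7 of the 23 tested members (30.4%) it exceeded every other array by over 0.25 on the log2 scale: Ifih1, Irf7, Irf9, Oasl2, Usp18, Ifit1 and Mx2. Over all 15012 genes the share was 1.71%. By the same rule 1 member was highest on mutant 3 (Mavs), where 4.84% of all genes were, and 1 on control 3 (Ifitm2), where 3.88% were. The gap and this group of genes were chosen after the values were seen, so the shares describe these arrays and carry no test. With a gap of 0.1 there were 9 such members and with a gap of 0.5 there were 2, Irf7 and Usp18. With a gap of 0.25 there were 6 to 8 under the other scalings and background corrections. The share of all genes was counted only for the gap of 0.25 on the main scale. The counts at other gaps and scalings thus have no share to be read against.

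Not all interferon targets followed this pattern. On mutant 1 Isg15, Rsad2, Isg20 and Psmb8 lay at or below the highest control array, and Bst2 was high on all mutants. Leukocytes, which express many of these genes, were followed by a list of 15 marker symbols, of which 11 had a probe and 8 were tested. In that list 7 differences were above 0 and 1 below, with a median of 0.11. The summed linear level of those 8 was 1429 on mutant 1, and 1429 to 1955 over the mutants against 1383 to 2029 over the controls, so mutant 1 was the lowest of the mutants. The pan-leukocyte Ptprc and the macrophage markers Adgre1 and Itgam were near background on all 6 arrays. The 8 tested markers, Cd14, Fcgr3, Lyz2, Aif1, Cx3cr1, Tyrobp, Fcer1g and Laptm5, were above background on all 6. Among them Fcgr3 lay at 7.80 to 8.50 and Lyz2 at 7.44 to 8.83. The part of leukocytes in the difference of Bst2 was not tested.

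**Figure D3:**
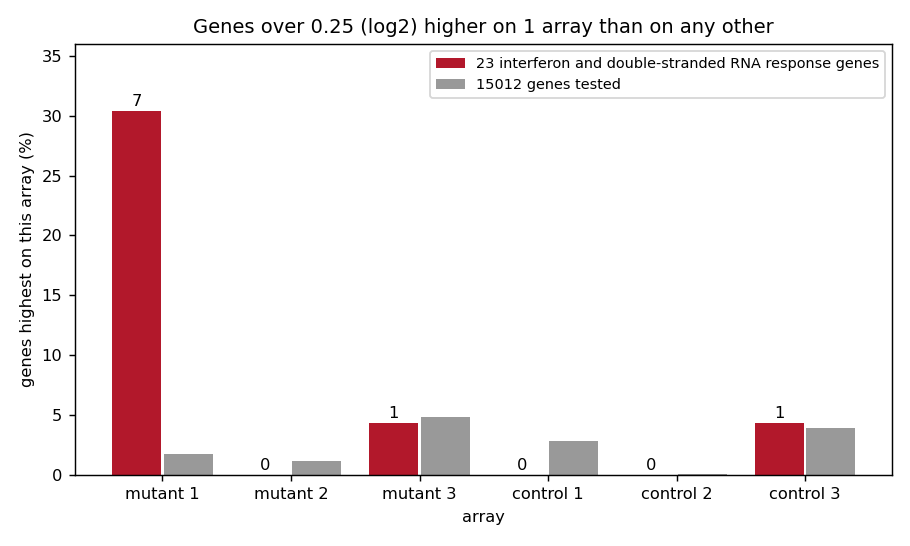
Share of genes (%, y axis) whose level on the named array (x axis) exceeded that on each other array by over 0.25 on the log2 scale, for the 23 tested members (red, with their number above the bar) and for all 15012 genes (grey). On mutant 1 the share was 30.4% of the members and 1.71% of all genes.

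**Figure D4:**
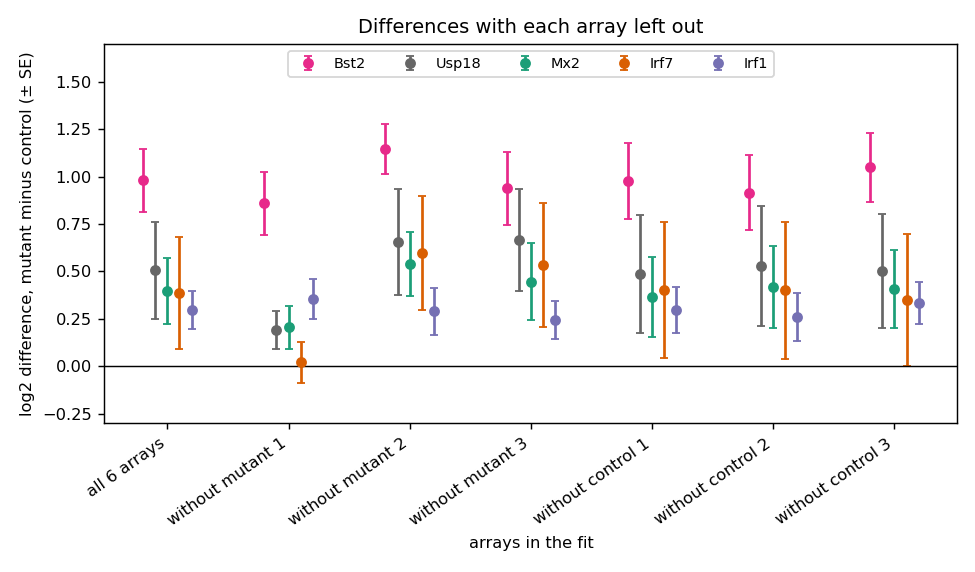
Log2 difference, mutant minus control, of 5 members with all 6 arrays and with each array left out (x axis); bars are the standard error from limma. Without mutant 1, Irf7 falls to 0.02, Usp18 to 0.19 and Mx2 to 0.21, while Bst2 stays at 0.86 and Irf1 at 0.35.

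The wider pathway was described from 5 further lists of 109 symbols, of which 69 genes were tested. None of these passed limma's test over all probes, 4 had an unadjusted p under 0.05 and were higher, and 2 were lower. As shares of the 69 genes, both lay below the 6.71% and 3.47% of all genes. Their median difference was 0.03. Among receptors, kinases and feedback genes 7 of 8 differences were above 0. The gene with the smallest p among them was Ifngr2, a subunit of the interferon gamma receptor, at 0.37 ± 0.13 (SE, limma adjusted p = 0.389). Ptpn6, a phosphatase that damps cytokine signals, gave -0.19 ± 0.09 and was above background on 1 mutant array. Medians of this list, each gene centred on its mean over the arrays, were 0.17, 0.23 and -0.08 on mutants 1 to 3 and -0.23, -0.10 and 0.02 on controls 1 to 3. Control 3 was therefore above mutant 3.

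No interferon gene passed the test. Of 8 tested 2 differences were above 0 and 6 below. Ifnb1, interferon beta, was 6.51, 6.27 and 6.60 in mutants 1 to 3 and 6.95, 6.77 and 6.54 in controls 1 to 3, a difference of -0.29 ± 0.14 (SE, limma adjusted p = 0.553). Control 3 fell within the mutants, as on the first principal component. Ifna1 gave 0.17 ± 0.09 with every mutant array (6.68 to 6.88) above every control array (6.53 to 6.63). Since the alpha interferon genes are near-identical copies, its probe may detect several of them. The other tested alpha interferon genes did not share its direction. Ifna4, Ifna6, Ifna7, Ifna9 and Ifnab had differences below 0, from -0.59 (Ifna4) to -0.05 (Ifna9).

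Of 12 genes that carry the signal from the sensors 5 lay above 0 and 7 below. The adaptor of Tlr3, Ticam1, gave 0.30 ± 0.17 (SE; dimmer probe 0.17), and Trim56, a ubiquitin ligase, gave -0.40 ± 0.14 with all mutants below all controls (limma adjusted p = 0.406). Among double-stranded RNA-binding and editing proteins 7 of 9 lay above 0. Stau2, an RNA transport protein, was 8.91, 9.23 and 9.37 in the mutants, against 8.48, 8.53 and 8.74 in the controls. Its difference was 0.58 ± 0.15 (limma adjusted p = 0.254), but its dimmer probe gave -0.01. Drosha, the nuclease that acts before Dicer, gave 0.31 ± 0.11. The editing enzyme Adarb1 gave -0.09 ± 0.08.

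The 32 tested genes of the list of other interferon targets had a median difference of 0.03, with 18 above 0 and 14 below. The lysosomal thiol reductase Ifi30 gave 0.35 ± 0.13 (SE, limma adjusted p = 0.433). The guanylate-binding protein Gbp4 gave -0.45 ± 0.11 (adjusted p = 0.254), at 7.07, 7.29 and 7.41 in mutants 1 to 3 and 7.75, 7.72 and 7.65 in controls 1 to 3. All mutants were lower than all controls. In this list 3 genes, or 9.38%, were highest on mutant 1 by over 0.25, beside 1.71% of all genes. On control 1 there were 2, H2-T23 and Ube2l6 (6.25%, beside 2.82% of all genes). On mutant 3 there was 1, Oas1c (3.125%, beside 4.84% of all genes). The 3 on mutant 1 were Oasl1 (6.96 on mutant 1, 6.08 to 6.56 elsewhere), Irgm1 (7.68, and 6.62 to 7.22 elsewhere) and Irgm2 (6.84, and 6.31 to 6.51 elsewhere). Oasl1 was above background on only 2 mutant arrays and 1 control array, so it just met the filter of 3 arrays and its lower levels lay near background. Irgm1 and Irgm2 are immunity-related GTPases. Each of the other pathway lists had 0 genes highest on mutant 1 by this rule. Those lists held 8 receptor, kinase and feedback genes, 8 interferon genes, 12 signalling genes and 9 double-stranded RNA-binding and editing genes.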

How the data were processed

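Single-colour CodeLink arrays of 3 Dicer mutant and 3 control hearts were analysed. The deposited files give, per the file headers, each spot's mean intensity, local background, a background-subtracted intensity and a normalized intensity. On the values, the authors' normalized intensity was the subtracted intensity divided by 1 number per array. The series' value table repeats it on spots flagged good, with a median per array of 1.83 to 2.06; the sources used here name no scanner software. Titles of the arrays hold a number shared by a mutant and a control; deviations from the group means correlated at 0.01, -0.48 and -0.38 within these pairs, so they were not treated as paired.

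With limma 3.58.1 (R 4.3.3), normexp with an offset of 50 was applied to spot means, and their log2 values were quantile-normalized over the 21880 spots that the platform annotation lists with a gene. Of these, 21676 name 1 gene; the 204 that name several served no gene. A further 14347 spots, unnamed here, were left out. The offset draws the differences of dim probes towards 0. Probes above background on at least 3 of 6 arrays, 17727 in all, were fitted with lmFit and eBayes, two-sided and without a block, and adjusted by Benjamini-Hochberg over all of them. The brightest probe stood for a gene. No level of 1 probe was set against that of another. The code was tested on simulated data.

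Members and lists were chosen with earlier results of these data known. Every member is named; values of each array are given for members with an unadjusted p under 0.05 and for the smallest p in each role, and Irf7, Irf9, Ifit1, Ifitm2, Eif2ak2, Isg15, Usp18, Trim25 and Rsad2 were added after their values were seen. From each pathway list the gene with the smallest p in each direction is named. Drosha, Ifna4, Ifna6, Ifna7, Ifna9, Ifnab, Oasl1, Irgm1, Irgm2, H2-T23, Ube2l6, Oas1c and the markers named were added after seeing values. Alternatives changed the background correction, scaling, filter, probe choice, block, variance prior, array weights and the arrays used. Precision is limited by having 3 arrays per group.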

Additional observations from a re-analysis of the deposited data

How the results depend on the processing

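None of the 23 members passed limma's test in 20 of the 22 alternatives; unequal array weights gave 4 and leaving out mutant 3 with control 3 gave 3, where 24.2% and 22.9% of all genes passed. Weights were estimated gene by gene, because the default estimate did not converge. Of 502 values of single members 475 kept direction and call, 7 gained a call and 20, of 10 members, changed sign without a call. The count higher at an unadjusted p under 0.05, 2, moved to 4 with the authors' normalized intensity, beside 5.76% of all genes. It was 8 with array weights and 8 without title number 3. In those fits 24.2% and 22.9% of all genes passed even the adjusted test. It was 1 without title number 1 or 2, and 1 to 6 with single arrays left out. Shares of all genes in these last fits are not given here, so these counts are not read as results about the members. The count lower, 0, moved to 1 with cyclic loess (Ifitm2, beside 4.86% of all genes) and 1 with array weights. It was 2 without title number 3, and 0 to 1 with single arrays left out. The median difference, 0.14, was 0.26 with the subtracted intensity, 0.25 with the authors' normalized intensity, 0.28 with the title start as a block (the first part of an array's title, shared by mutants 1 and 2 and control 1, so that this fit compares 2 mutants with 1 control, assumed to vary like them), 0.040 without both arrays of title number 1 and 0.27 without those of number 3. The count of members highest on mutant 1 fell from 7 to 2 at a gap of 0.5, where the share of all genes was not counted. Members above all controls numbered 6 with all 6 arrays, beside 9.73% of all genes. They numbered 6 without mutant 1, 9 without mutant 3 and 13 without title number 3. Fewer arrays make full separation easier for any gene, so the counts with arrays left out are not read as results about the members. With the title number as a replicate block 2 members were higher at an unadjusted p under 0.05, 0 passed, and Bst2 had an adjusted p of 0.517 (limma). The share of all genes in that fit is not given here either. The causes of these shifts were not tested. Normalizing over all spots and the other gaps were chosen after seeing the data. Dim spots limit the result: 8 members with a probe were too near background to test.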

Other observations

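Among interferon-stimulated genes of the wider pathway, Xaf1 and Iigp1 had probes that differed strongly between arrays without following the groups. A probe of Xaf1, an apoptosis factor, read 9.13, 6.08 and 6.23 on mutants 1 to 3 and 8.06, 7.84 and 6.21 on controls 1 to 3 (log2). Mutant 1 and controls 1 and 2 were thus high and the other arrays low, while the brightest Xaf1 probe stayed between 8.16 and 8.56. The probe that differed was above background on 1 mutant array and on 3 control arrays, so its low levels lay at or near background. Iigp1, an immunity-related GTPase, was 6.27 on mutant 3 and 7.22 to 7.37 on the other arrays. Its dimmer probe was also lowest on mutant 3, at 6.08 against 6.57 to 6.72. Each Iigp1 probe was above background on 2 mutant arrays and on 3 control arrays. Both genes were singled out after their values were seen.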
